A study of Mus musculus with 16 samples.

Results

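The Sox transcription factors of mouse neural stem cells were followed through 12 RNA-seq libraries. The members are 10 genes chosen by name from their subfamilies, out of the 57132 genes in the count files: Sox1, Sox2 and Sox3 (SoxB1), Sox21 (SoxB2), Sox4 and Sox11 (SoxC), Sox5 and Sox6 (SoxD), and Sox9 and Sox10 (SoxE). Total RNA came from mouse neural stem cells kept in a self-renewing medium labelled GF. The groups are labelled gRNA and control, and the series title names an agent, TAPIR. That the gRNA group received TAPIR and the control group did not is a reading that the treatment labels do not state. Each of the 2 labelled batches held 3 gRNA and 3 control libraries. Libraries are numbered within a treatment in the order of their records, so control 1 to 3 and gRNA 1 to 3 belong to batch 1, and control 4 to 6 and gRNA 4 to 6 to batch 2. The sources used here give neither strain, age nor origin of the cells, nor what TAPIR is, which target the guide RNA has or what separates the batches. The labels do not say whether libraries came from separate cultures, so p-values measure the spread between these samples only, which may be technical. Ribosome footprints of the same cells were sequenced in 4 further libraries and are not analysed here.

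Sox proteins bind the minor groove of DNA through a high-mobility-group box and bend it, and they act on most genes together with a partner factor such as a POU protein. In the developing nervous system SoxB1 proteins hold progenitors in an undifferentiated, dividing state, and the SoxB2 protein Sox21 works against them on shared targets. SoxC proteins switch on genes of young neurons, SoxE proteins drive the formation of glia, and SoxD proteins lack an activation domain of their own and modulate SoxE proteins in oligodendrocyte precursors and in cartilage.

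The libraries held 8414028 to 19454390 counts in genes, with a median of 14918917. Levels are given as CPM, counts scaled to a common library size with TMM factors. They are not corrected for gene length, so levels of different genes are not set against each other. The labelled cell type was checked against 12 markers of neural stem cells and progenitors. Their summed level ran from 2420 to 3930 CPM in batch 1 and from 2100 to 2580 CPM in batch 2. The stem cell marker Prom1 was under 1 CPM in every library of batch 2, so it entered the batch test below through batch 1. The others were above 1 CPM in at least 1 library of each batch. In that test 8 of the 12 were called lower in batch 2, 1 higher and 3 not called, with a median log2 difference of -0.39. Of all tested genes, 33.1% were called lower and 28.4% higher. Control library 6 stood apart: it held 19.9% of the variance within batches over all tested genes, gRNA library 6 held 13.3%, and the other 10 held 4.6% to 8.33% each. Results that rest on control library 6 are given with and without it.

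Of the 10 members, 9 passed the filter on low counts. Between the batches, 1 of these 9 rose and 4 fell in batch 2, where 61.4% of the 17704 tested genes passed the same test. Sox11 fell most, Sox1, Sox9 and Sox3 fell by smaller amounts, and Sox6 rose. Sox2, Sox4, Sox5 and Sox21 did not pass. A decrease in bulk RNA cannot be told apart from a decrease in the number of cells that hold the transcript. Among all genes, 33.1% were called lower and 28.4% higher in batch 2, so the share of members called was no higher than that of genes at large. The median log2 difference was -0.26 over the 9 members and -0.03 over all tested genes. Batch 2 and batch 1 were compared with edgeR's quasi-likelihood test with treatment as a term and Benjamini-Hochberg adjustment over all tested genes at 0.05, as for every adjusted p below.

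Sox2 encodes the SoxB1 factor most widely used to mark neural stem cells. In batch 1 it measured 153, 189 and 138 CPM in control libraries 1 to 3 and 176, 133 and 135 CPM in gRNA libraries 1 to 3. In batch 2 it measured 146, 132 and 191 CPM in control libraries 4 to 6 and 126, 131 and 149.6 CPM in gRNA libraries 4 to 6. The batches overlapped over most of their range, and the log2 difference of batch 2 against batch 1 was -0.08 (SE 0.11, 95% interval -0.31 to 0.16, edgeR adjusted p = 0.571). An absolute change larger than that of Sox2 was seen in 88.2% of the tested genes. The start of Sox2 is shown because Sox2 did not pass between the batches, while Sox2ot, the noncoding gene it lies within, did. RefSeq's table on GRCm38.p6, an older build than the GRCm39 of the count files, holds promoters for 7 of the 10 members (all but Sox3, Sox9 and Sox10). The 250 bases before the Sox2 start lie on the plus strand at chr3:34649745-34649994.
Sox2: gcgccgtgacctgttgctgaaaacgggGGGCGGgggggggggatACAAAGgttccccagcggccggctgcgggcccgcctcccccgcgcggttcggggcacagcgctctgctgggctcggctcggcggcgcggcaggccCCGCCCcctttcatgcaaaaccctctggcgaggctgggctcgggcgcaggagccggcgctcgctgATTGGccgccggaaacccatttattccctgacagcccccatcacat
Capitals mark matches on either strand to 4 short motifs: ACAAT and ACAAAG, which are cores of Sox binding sites, CCAAT, and GGGCGG, the GC box; read on the other strand, the last pair appear as ATTGG and CCGCCC. The Sox2 window holds 1 ACAAAG, 1 CCAAT and 2 GC boxes, with 72% G and C. Of 32851 promoters of the same length, 16.5% hold ACAAAG, 33.8% CCAAT and 32.7% a GC box, and 27.7% hold ACAAT, which the Sox2 window lacks.

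Sox1 and Sox3, the other SoxB1 factors, were lower in batch 2. Sox1 measured 124, 128 and 140.2 CPM in control libraries 1 to 3 and 119, 125 and 136 CPM in gRNA libraries 1 to 3. It measured 84.4, 86.7 and 148 CPM in control libraries 4 to 6 and 81.2, 82.0 and 87.8 CPM in gRNA libraries 4 to 6. Of the batch 2 libraries, control 6 alone reached the batch 1 range and passed it; the other 5 lay below all of batch 1. Sox1 fell by 0.45 on the log2 scale (SE 0.12, edgeR adjusted p = 0.00605), a 1.37-fold decrease, and by 0.60 without control library 6 (edgeR adjusted p = 8.65e-07). Within the control libraries alone the difference was -0.29 and did not pass (edgeR adjusted p = 0.333).

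Sox3 measured 137, 162 and 118 CPM in control libraries 1 to 3 and 132, 113 and 109 CPM in gRNA libraries 1 to 3. In batch 2 the values were 98.0, 100.4 and 134 CPM in control libraries 4 to 6 and 84.0, 91.6 and 98.0 CPM in gRNA libraries 4 to 6. Again control library 6 alone overlapped batch 1. Sox3 fell by 0.35 on the log2 scale (SE 0.10, edgeR adjusted p = 0.00691), a 1.27-fold decrease. Without control library 6 the difference was -0.42 (edgeR adjusted p = 0.000711). Within the control libraries it was -0.31, which did not pass (edgeR adjusted p = 0.174). Per read of Sox2, Sox3 gave 0.746 to 0.9 reads in batch 1 and 0.655 to 0.762 in batch 2, ranges that overlap.

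Sox21, the SoxB2 repressor, did not pass between the batches. It measured 102, 100.4 and 128 CPM in control libraries 1 to 3 and 98.7, 91.2 and 118 CPM in gRNA libraries 1 to 3, against 82.6, 82.9 and 157 CPM in control libraries 4 to 6 and 79.9, 78.4 and 89.4 CPM in gRNA libraries 4 to 6. Its highest value of all 12 libraries was in control 6, and the other 5 libraries of batch 2 lay below all of batch 1. The log2 difference was -0.18 (SE 0.15, edgeR adjusted p = 0.33), and -0.36 without control library 6 (edgeR adjusted p = 0.00232).

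**Figure D1:**
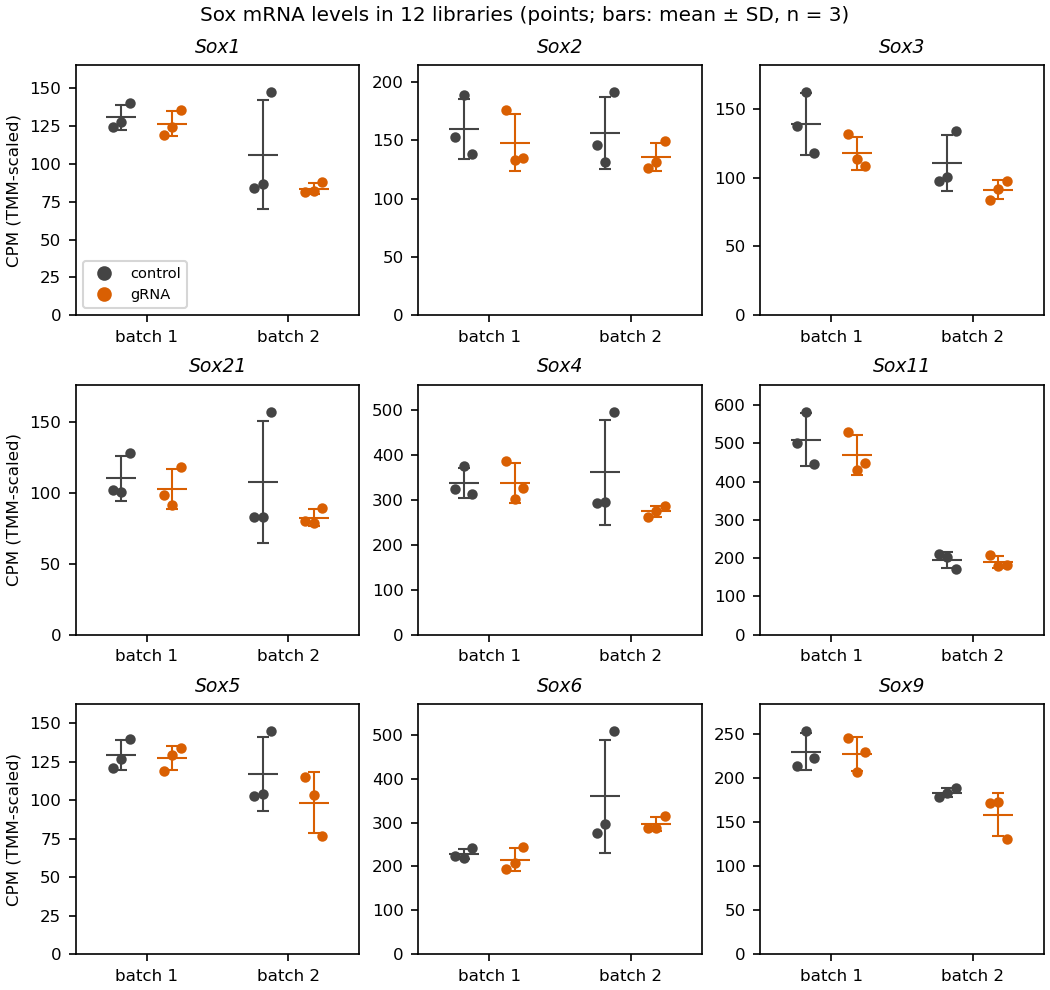
Levels of the 9 tested Sox genes in CPM from TMM-scaled library sizes (vertical axes, starting at 0), by batch and treatment; points are libraries, horizontal bars the mean and whiskers the SD over 3 libraries. Sox11 separates the batches (430.1 to 583 against 172 to 211 CPM), and a single control library of batch 2 lies far above the others for Sox1, Sox21, Sox4 and Sox6.

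The SoxC genes Sox4 and Sox11 parted between the batches. Sox11 measured 499.8, 583 and 444.6 CPM in control libraries 1 to 3 and 529.7, 430.1 and 449 CPM in gRNA libraries 1 to 3. In batch 2 it measured 211, 204 and 172 CPM in control libraries 4 to 6 and 209, 180.2 and 182 CPM in gRNA libraries 4 to 6. The highest library of batch 2 lay below the lowest of batch 1 by a wide gap. The log2 difference was -1.34 (SE 0.09, 95% interval -1.53 to -1.15, edgeR adjusted p = 1.37e-08), a 2.53-fold decrease. Sox11 was the only member past a 2-fold change, a size that 29.9% of tested genes reached with an adjusted p under 0.05, and 24% of tested genes had a larger absolute change. The decrease was -1.36 within the control and -1.27 within the gRNA libraries.

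Sox4, which shares much of its binding and function with Sox11, measured 324, 374 and 313 CPM in control libraries 1 to 3 and 387, 302 and 325 CPM in gRNA libraries 1 to 3. In batch 2 it measured 293.5, 295 and 496 CPM in control libraries 4 to 6 and 261, 274 and 287 CPM in gRNA libraries 4 to 6. As with Sox21, control library 6 held the highest value of all and the other 5 libraries of batch 2 lay below batch 1, here by a small margin. The log2 difference was -0.10 (SE 0.13, edgeR adjusted p = 0.541), -0.25 without control library 6 (edgeR adjusted p = 0.0112) and 0.12 within the control libraries (edgeR adjusted p = 0.712), so its direction turned with the libraries used. For each read of Sox4, Sox11 gave 1.37 to 1.56 reads in batch 1 and 0.346 to 0.799 in batch 2, with no overlap; the lowest of these ratios was in control 6. The 250 bases before both starts, from RefSeq on GRCm38.p6, are printed because these related genes behaved differently. Sox4 lies on the minus strand at chr13:28953700-28953949 and Sox11 on the minus strand at chr12:27342719-27342968, with capitals as for Sox2.
Sox4: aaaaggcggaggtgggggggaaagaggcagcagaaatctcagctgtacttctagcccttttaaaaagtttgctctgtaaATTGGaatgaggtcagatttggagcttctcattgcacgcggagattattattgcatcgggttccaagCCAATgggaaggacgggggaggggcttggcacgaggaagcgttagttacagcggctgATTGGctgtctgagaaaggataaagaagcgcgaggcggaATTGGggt
Sox11: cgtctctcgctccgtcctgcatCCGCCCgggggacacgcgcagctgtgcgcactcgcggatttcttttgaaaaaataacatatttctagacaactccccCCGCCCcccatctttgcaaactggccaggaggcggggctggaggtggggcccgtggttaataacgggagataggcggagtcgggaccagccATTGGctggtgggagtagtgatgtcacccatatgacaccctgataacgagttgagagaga
The Sox4 window holds 4 CCAAT matches and no GC box, with 50.8% G and C, and the Sox11 window 1 CCAAT and 2 GC boxes, with 58% G and C. Neither holds ACAAT or ACAAAG in these letters.

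**Figure D2:**
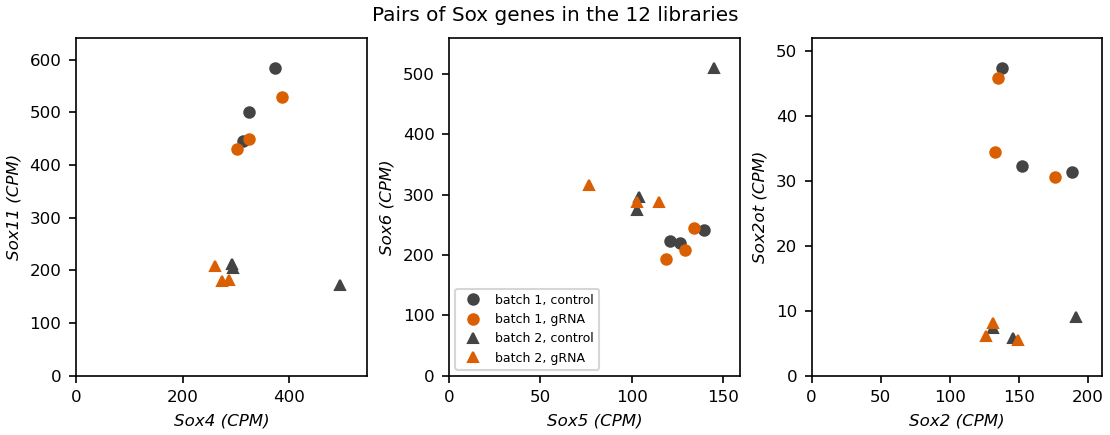
Each of the 12 libraries by its CPM for Sox4 and Sox11 (left), Sox5 and Sox6 (middle) and Sox2 and Sox2ot (right); circles are batch 1, triangles batch 2, and colour gives the treatment. The batches form separate groups for Sox11 against Sox4 and Sox2ot against Sox2, while Sox4 and Sox2 themselves overlap.

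The SoxD genes also differed from each other. Sox6 measured 224, 220.3 and 241 CPM in control libraries 1 to 3 and 193, 209 and 244 CPM in gRNA libraries 1 to 3, against 275, 296.5 and 509 CPM in control libraries 4 to 6 and 288, 287 and 316 CPM in gRNA libraries 4 to 6. Every library of batch 2 lay above every library of batch 1, with control 6 far above the rest. Sox6 rose by 0.56 on the log2 scale (SE 0.13, edgeR adjusted p = 0.00192), a 1.47-fold increase, and by 0.41 without control library 6 (edgeR adjusted p = 0.000233).

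Sox5 measured 121, 127 and 139.7 CPM in control libraries 1 to 3 and 119, 129 and 134 CPM in gRNA libraries 1 to 3. In batch 2 it measured 103, 104 and 145 CPM in control libraries 4 to 6 and 115, 103 and 76.5 CPM in gRNA libraries 4 to 6. The batches overlapped through control library 6 only, and gRNA library 6 was the lowest. The log2 difference was -0.26 (SE 0.11, edgeR adjusted p = 0.0597), and -0.35 without control library 6 (edgeR adjusted p = 0.00408). Sox6 gave 1.62 to 1.85 reads per read of Sox5 in batch 1 and 2.5 to 4.13 in batch 2, and these ranges did not overlap.

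Of the SoxE genes, Sox9, which is needed for stem cells to become able to form glia and is kept by astrocytes, measured 214, 253 and 223 CPM in control libraries 1 to 3 and 245, 207 and 229.5 CPM in gRNA libraries 1 to 3. It measured 178, 183 and 189 CPM in control libraries 4 to 6 and 172, 173 and 130.4 CPM in gRNA libraries 4 to 6. All of batch 2 lay below all of batch 1, and gRNA library 6 was the lowest. Sox9 fell by 0.42 on the log2 scale (SE 0.08, edgeR adjusted p = 0.000607), a 1.34-fold decrease. In all, 3 of the 9 tested members (Sox11, Sox6 and Sox9) had ranges that did not overlap between the batches, against 41.6% of all tested genes.

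Sox10, which marks oligodendrocyte lineage and neural crest cells, was at the limit of detection and was not tested. Control libraries 1 to 3 held 3, 2 and 5 counts, and gRNA libraries 1 to 3 held 2, 20 and 1. Control libraries 4 to 6 held 0, 1 and 3 counts, and gRNA libraries 4 to 6 held 0, 0 and 2. Only gRNA library 2 went past 1 CPM, at 1.1 CPM. A count of 0 allows up to 3 counts, which is 0.226 CPM in control 4, 0.168 CPM in gRNA 4 and 0.182 CPM in gRNA 5; these limits cover counting error only. Other markers of those cells did not share 1 pattern. Of the 12 oligodendrocyte lineage markers, Mog, Mag and Enpp6 were under 1 CPM in every library. Olig1 ran from 177 to 389 CPM and Cnp from 79 to 229 CPM over the 12 libraries. Nkx2-2 was 12.1 to 30.8 CPM in batch 1 and at most 0.145 CPM in batch 2. Olig2, listed here with the progenitor markers, ran from 184 to 402 CPM. Of the neural crest markers, Foxd3, Tfap2b, Pax3, Twist1 and Snai2 were under 1 CPM throughout, while Tfap2a reached 16.8 to 21.2 CPM in batch 2 and Ednrb 333 to 623 CPM in batch 1.

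**Figure D3:**
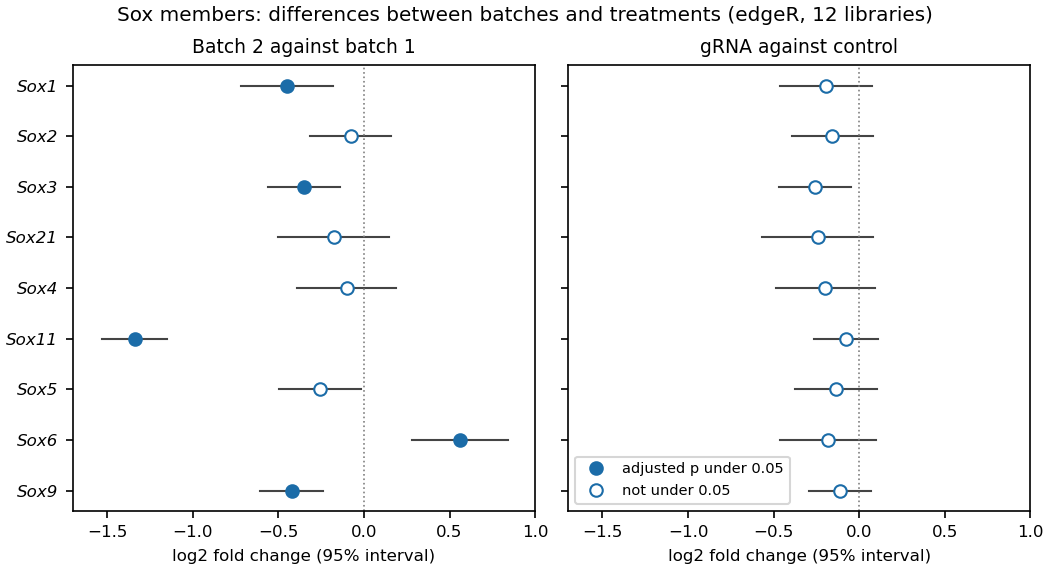
Log2 fold changes of the 9 tested Sox genes with 95% intervals (horizontal axes) for batch 2 against batch 1 (left) and gRNA against control (right), from edgeR fits over all 12 libraries; filled points have an adjusted p under 0.05. Sox11 stands at -1.34 and Sox6 at 0.56 between the batches, and no point is filled in the treatment comparison.

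Within batch 2, most Sox genes were highest in control library 6. Against the mean of the other 5 libraries, that library held 1.91 times as much Sox21, 1.76 times as much Sox4, 1.75 times as much Sox1 and 1.74 times as much Sox6. Sox5 (1.46 times), Sox3 (1.42 times) and Sox2 (1.4 times) were also higher, and Sox9 only 1.14 times. Sox11 did not share this: at 172 CPM it was lower in control 6 than in any of the other 5, which ran from 180 to 211 CPM. Across all 12419 genes compared in this library, 5.04% lay further above the other 5 than Sox21, and 6.81% further than Sox1. In the same library the summed neural crest and Schwann cell markers stood 1.37 above the batch mean on the log2 scale, those of endothelial cells 0.65, astrocytes 0.57, the oligodendrocyte lineage 0.39, neural stem cells 0.19 and neurons 0.18, those of chondrocytes -0.04 and of pluripotent cells 0.07, and those of microglia -0.61. Of the 11 neural crest and Schwann cell markers, 6 were under 1 CPM in all of batch 2, where the sum ran from 81 to 282 CPM. Most of the sum in control 6 was Ednrb, a receptor gene that astrocytes also express, at 239 CPM against a median of 62 CPM in batch 2. The part of other cells in the Sox levels of control 6 was not tested. With that library left out, 8 of the 9 members passed between the batches, Sox21, Sox4 and Sox5 among them with lower levels in batch 2, and Sox2 alone did not (-0.15, edgeR adjusted p = 0.181). Within the control libraries 3 passed, namely Sox11, Sox6 and Sox9.

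**Figure D4:**
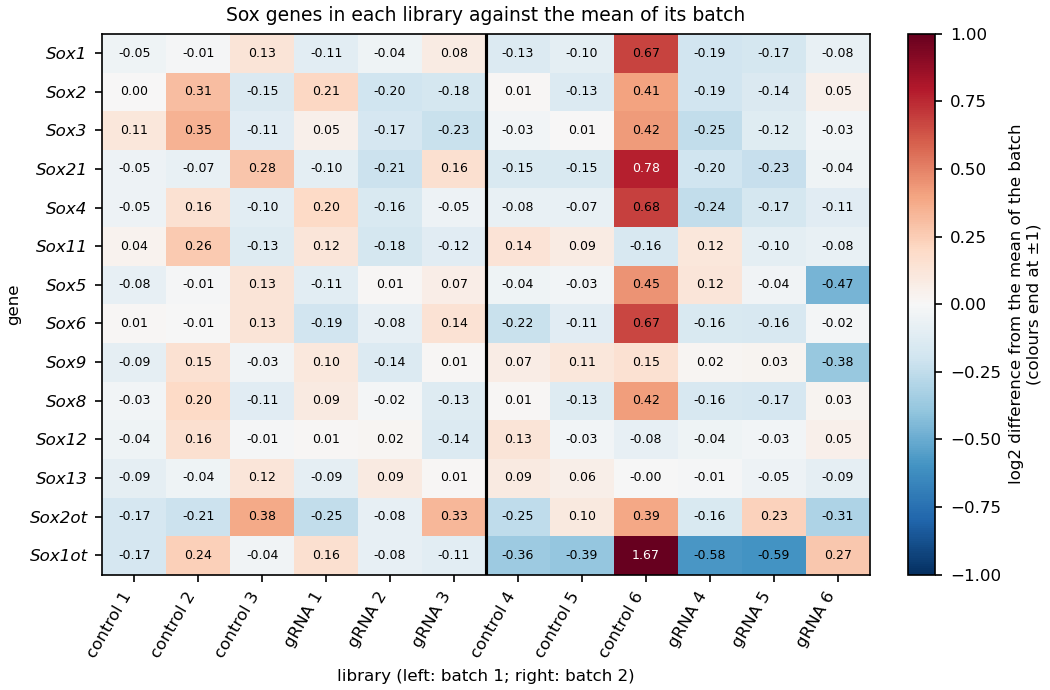
Log2 difference of each library from the mean of its batch for the 9 tested members, 3 other Sox genes and 2 noncoding genes around Sox loci (rows) in the 12 libraries (columns; batch 1 left of the line). Control 6 is the darkest column, with 0.78 for Sox21, 0.68 for Sox4 and 0.67 for Sox1 and Sox6, while Sox11 in it is at -0.16.

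How the members varied together after the mean of each batch was taken off is given as a description, over 12 libraries that share sequencing depth and composition between genes. Over the 36 pairs, Pearson's r of log2 CPM had a median of 0.51 and ran from -0.51 to 0.98. Without control library 6 the median was -0.09. In these 11 libraries Sox2, Sox3, Sox4 and Sox11 correlated with each other at 0.71 to 0.88, and Sox1, Sox21 and Sox6 did so at 0.80 to 0.89, while Sox1 and Sox2 stood at -0.31. In batch 1, Sox2, Sox3 and Sox11 were highest in control 2 and Sox4 in gRNA 1, while Sox1 and Sox21 were highest in control 3 and Sox6 in gRNA 3. Control 2 and gRNA 1 held the fewest counts of all libraries (8414028 and 10515276). Control 3 held the most (19454390), and gRNA 3 held 17143345. The part of depth in these groupings was not tested. Among 11403 genes compared, the 2 with the pattern most like that of Sox2 over the 12 libraries were Ube2r2 (r = 0.99) and Ppp1r9b (r = 0.98). For Sox1 they were Usp35 and Trak1 (0.99 each), for Sox3 Pik3r2 (0.97) and Sall3 (0.96), and for Sox21 Tap2 (0.98) and Perm1 (0.98). Sox4 was matched by Ppm1b (0.97) and Myo10 (0.96), Sox5 by Zkscan1 and Ube2q2 (0.98 each) and Sox6 by Plxnb1 and Med13 (0.98 each). Sox9 was matched by Fam76a (0.96) and Dmd (0.94), and Sox11 by Rab3gap2 and Tbl1xr1 at 0.91 each, the least close of these pairs. Without control library 6 the same pairs stood between 0.85 (Sox4 with Myo10) and 1.00 (Sox2 with Ube2r2).

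No member passed between gRNA and control libraries, and none of the 17704 tested genes did (0%; edgeR smallest adjusted p = 1.00), and DESeq2 and limma-voom also called 0 genes. The log2 differences of gRNA against control, with batch as a term, ran from -0.26 for Sox3 to -0.08 for Sox11. At an unadjusted p under 0.05 were 230 genes (1.3%) by edgeR, 216 by DESeq2 and 232 by limma-voom. That share is smaller than this threshold gives where nothing differs. The 0 genes called therefore do not show that there was no effect. Sox3 was the only member among the 230 genes of edgeR, and its 95% interval ran from -0.47 to -0.05 (SE 0.10). The intervals of the others were -0.46 to 0.07 for Sox1, -0.39 to 0.08 for Sox2, -0.57 to 0.08 for Sox21 and -0.49 to 0.09 for Sox4. They were -0.27 to 0.11 for Sox11, -0.38 to 0.10 for Sox5, -0.46 to 0.10 for Sox6 and -0.30 to 0.07 for Sox9. These bounds leave room for a decrease of about the size seen between the batches for Sox1 and Sox3, but not for one as large as that of Sox11.

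All 9 tested members lay below 0 in this comparison, with a median of -0.18, where 52.3% of all genes did and the median was -0.01. In batch 1 alone 8 of 9 lay below 0 (51.3% of genes) with a median of -0.08, and in batch 2 alone 9 of 9 (49.7% of genes) with a median of -0.27. At an unadjusted p under 0.05 stood 0 members in either batch, against 0.865% of genes in batch 1 and 0.741% in batch 2 by edgeR. The members were measured in the same libraries and several rose together in control 6, so these counts are not independent. Without that library the pooled difference was -0.04 for Sox1, -0.07 for Sox2, -0.06 for Sox21, -0.04 for Sox4, -0.04 for Sox5 and -0.02 for Sox6. It was -0.185 for Sox3, -0.119 for Sox11 and -0.093 for Sox9, so every tested member stayed below 0. In batch 2 without control 6, the members lay between -0.195 (Sox9) and 0.05 (Sox6). The difference of the gRNA effect between the batches passed for 0 of 18279 genes by edgeR, with 236 at an unadjusted p under 0.05, and for 0 by DESeq2 and limma-voom. It ran from -0.40 (Sox4) to 0.08 (Sox11) over the members.

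Sox2ot, the noncoding gene around Sox2, changed far more between the batches than Sox2 did. It measured 30.6 to 47.3 CPM in batch 1 and 5.58 to 9.03 CPM in batch 2, without overlap. The log2 difference was -2.40 (SE 0.16, edgeR adjusted p = 1.6e-08), a 5.28-fold decrease. Each read of Sox2 was matched by 0.166 to 0.343 reads of Sox2ot in batch 1 and by 0.0373 to 0.062 in batch 2. Sox1ot, around Sox1, did not pass (-0.39, edgeR adjusted p = 0.332), but was 21.6 CPM in control 6 against 4.49 to 8.18 CPM in the other libraries of batch 2. Without control 6 its difference was -0.90 (edgeR adjusted p = 0.000356). By the RefSeq table Sox1 and Sox2 lie inside these genes, Sox4 inside Gm46405, Sox21 partly in Gm4675, and several noncoding genes lie within Sox5 and Sox6. The sources used here do not give the strand setting of the counting, so reads of such overlapping genes cannot be told apart.

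Of 11 other Sox genes listed, 4 were tested and all passed between the batches, where 61.4% of all genes did. Besides Sox2ot these were coding genes, and all rose: the SoxE gene Sox8 by 0.34 (edgeR adjusted p = 0.0071), the SoxD gene Sox13 by 0.30 (edgeR adjusted p = 0.000988) and the SoxC gene Sox12 by 0.20 (edgeR adjusted p = 0.0137). Within the control libraries Sox8 (0.44, edgeR adjusted p = 0.0639) and Sox12 (0.18, edgeR adjusted p = 0.219) did not pass. Without control library 6 the rise of Sox8 was 0.26 (edgeR adjusted p = 0.00675). Sox8 went from 168 to 210.4 CPM in batch 1 to 205 to 309 CPM in batch 2, opposite in direction to its relative Sox9, and Sox13 from 59.6 to 69.0 CPM to 73.5 to 83.2 CPM. Only Sox13 of these coding genes had ranges without overlap, and Sox12 and Sox13 were not raised in control 6. Sry, Sox14 and Sox17 had 0 counts in every library. Sox7, Sox15, Sox18 and Sox30 reached at most 15, 8, 2 and 10 counts.

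Of 9 tested partner factors of SoxB1 proteins, 2 rose, 4 fell and 3 did not pass, with a median of -0.08, a share called near the 61.4% of all genes. Among POU factors, which bind DNA beside Sox2, Pou3f1 rose by 2.96 (13.7 to 23.2 CPM in batch 1, 47.8 to 159 in batch 2, edgeR adjusted p = 1.89e-07). Pou3f2 fell by 1.53 (89.2 to 116 CPM against 29.6 to 39.5, edgeR adjusted p = 5.16e-09). Pou3f4 stood at -0.08 without passing, and at -0.21 without libraries 6 (edgeR adjusted p = 0.0412). Zeb2 fell by 1.11, while the forebrain progenitor factor Pax6 (0.11) and the chromatin remodeller Chd7 (0.11) did not pass.

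Genes known as targets of SoxB1 proteins in neural progenitors were lower in batch 2 for 6 of 10 tested, higher for 1 and not called for 3, with a median of -0.38; 61.4% of all genes were called, near the share here. Gli3, the repressor of hedgehog signalling, fell by 5.21 on the log2 scale (58.2 to 117 CPM against 1.24 to 3.76, edgeR adjusted p = 6.83e-10), and the ligand Shh fell by 3.73. Hes5, a Notch effector, rose by 2.15 (3.58 to 9.29 CPM against 11.2 to 67.8, edgeR adjusted p = 0.000637), by 1.55 without control 6 and by 1.28 without libraries 6. The progenitor filament gene Nes (-0.11), the receptor Notch1 (-0.08) and the self-renewal gene Bmi1 (0.13) did not pass. Bmi1 did without control 6 (0.18, edgeR adjusted p = 0.0249), and Notch1 without libraries 6 (-0.33, edgeR adjusted p = 0.000728).

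SoxC targets of young neurons fell in 4 of 7 tested, rose in 2 and did not pass in 1, with a median of -0.55. Among all genes, 33.1% were lower and 28.4% higher. Dcx, 1 of the 4, entered the test through batch 1 (12 to 72 counts, against 0 to 12 in batch 2). The count and median of this list are therefore not read as a result. Elavl4, a neuronal RNA-binding protein, went from 54 to 69.2 CPM in batch 1 to 2.77 to 7.76 CPM in batch 2, a log2 difference of -3.30 (edgeR adjusted p = 6.4e-10). Dcx, of migrating young neurons, fell by 4.15 but from only 1.59 to 3.96 CPM to 0 to 0.874 CPM. Control library 6 held 12 counts of it and the other 5 libraries of batch 2 held 1 in all, so the fitted difference without control 6 (-7.01) gives no size. Tubb3, the neuronal tubulin, rose by 2.34 (2.1 to 4.44 CPM against 13.6 to 26.2), and Map2 did not pass (-0.13). Beside these, the 10 neuron markers summed to 773 to 1060 CPM in batch 1 and 648 to 802 CPM in batch 2. Map2 alone gave 607 to 918 and 600 to 745 CPM of these sums. Of the 9 neuron markers tested, 6 were lower in batch 2, 2 higher and 1 not called, with a median of -3.30. Dcx and Snap25 were under 1 CPM in all of batch 2 and entered the test through batch 1, so these counts are not read as a result. Stmn2 was under 1 CPM in every library.

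SoxE targets of glia rose in 6 of 11 tested, fell in 2 and did not pass in 3, with a median of 1.18, where all genes had 28.4%, 33.1% and a median of -0.03. Of the SoxE genes themselves, Sox9 fell, Sox8 rose and Sox10 was near 0. Myrf, the oligodendrocyte myelin regulator, rose by 2.41 (5.59 to 8.46 CPM against 29.8 to 41.5, edgeR adjusted p = 1.71e-09), and S100b rose by 1.69. Apoe fell by 2.09 (82.8 to 152 CPM against 12.3 to 87.7, edgeR adjusted p = 0.000594), with its highest value of batch 2 in control 6. Without that library it fell by 2.80, and within the control libraries it did not pass (-1.51, edgeR adjusted p = 0.116). The astrocyte filament gene Gfap did not pass (-0.30): it was 12.9 to 19.6 CPM in batch 1, and in batch 2 40.8 CPM in gRNA 6, 31.3 CPM in control 6 and at most 1.35 CPM in the other 4 libraries. Without libraries 6 its difference was -4.28 (edgeR adjusted p = 3.59e-08), and -1.75 without gRNA 6 alone. The myelin gene Mbp, at or under 2.48 CPM, did not pass (1.19), and stood at 0.72 without control 6 and 0.30 without libraries 6. The 12 markers of the oligodendrocyte lineage summed to 448 to 612 CPM in batch 1 and to 722 to 1030 CPM in batch 2. Of 9 tested, 6 were higher, 1 lower and 2 not called. Nkx2-2, the 1 called lower, went the other way from the sum, from 12.1 to 30.8 CPM to at most 0.145 CPM. Nkx2-2 entered the test through batch 1 (188 to 554 counts, against 0 to 2 in batch 2). The counts of this list are therefore not read as a result. The 8 astrocyte markers summed to 553 to 937 and 387 to 731 CPM, which hides opposite changes. Of 7 tested, 3 were lower, 2 higher and 2 not called. Slc1a2 (160 to 285 CPM against 12.3 to 76.7) and Aldh1l1 (67.8 to 162 against 7.46 to 35.5) were lower in batch 2, while S100b rose.

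Of 11 collagen and matrix genes that Sox9, Sox5 and Sox6 switch on in cartilage, 5 did not pass the filter on low counts, 5 were called higher in batch 2 and 1 was not called. Col9a1 (2 to 11 counts), Col9a2 (7 to 20) and Acan (4 to 12) were near the minimum count of 10 in batch 1 and entered the test through batch 2, so no count or median of this list is read as a result. Col9a2 was 0.418 to 1.46 CPM in batch 1 and 14.4 to 27.9 CPM in batch 2, and Col9a1 0.266 to 1.1 and 4.56 to 14.9 CPM. Their fitted differences (4.52 and 4.13) rest on values near the floor in batch 1 and give no size. Col11a2 rose by 3.16 (1.13 to 2.34 CPM against 10.2 to 19.4). Col9a3 did not pass (-0.46, edgeR adjusted p = 0.0675). The 6 chondrocyte markers summed to no more than 4.92 CPM in any library, and Hapln1, Matn1 and Comp were under 1 CPM in all 12. None of the genes in these lists passed in gRNA against control.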

How the data were processed

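Per the labels' protocols, total RNA of 12 samples was made into stranded libraries depleted of ribosomal RNA. Per the submitters' processing notes, Trimmomatic, STAR, SAMtools and HTSeq were used on GRCm39; the sources used here give neither their versions nor the strand setting. The authors deposited raw counts for each Ensembl gene. The 5 HTSeq summary lines entered neither library sizes nor tests. Reads in no gene were 19% to 25.1% of each batch 1 library and 8.83% to 12.7% of each batch 2 library, without overlap. The part of this difference in the comparison of the batches was not tested. Symbols were matched for 51880 of 57132 identifiers.

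The low-count filter was filterByExpr (minimum count 10) and the scaling TMM; edgeR 4.0.16 in R 4.3.3 gave quasi-likelihood tests, adjusted by Benjamini-Hochberg and called at 0.05. Batches were compared with treatment as a term, treatments with batch as a term, within each batch, and by an interaction. Alternatives were DESeq2 1.42.0, limma-voom (limma 3.58.1), other filters, 1 treatment only and leaving out each library; leaving out libraries 6 together and scaling by total counts alone were added after seeing the data. The fits were also run on simulated counts, drawn independently for each gene and library. These lack shifts shared by many genes of 1 library, as in control 6, and their outcome is not used here. Figures used Python 3.11.15 with matplotlib 3.10.9.

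Members and gene lists were chosen with earlier results of these data known. Named list genes were up to 3 called with the largest change between batches and up to 3 not called; some listed genes are counted but not reported here by name. Similar genes were the 2 with the highest r among those averaging 50 counts or more. Names of the footprint libraries matched no label and no table paired their transcripts with genes, so the planned footprint values are not used here. Levels per length were not computed, since exon lengths of the files' build were not used here.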

Additional observations from a re-analysis of the deposited data

Results flagged for a closer look

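Values far from the rest of their group were screened in 56 groups of 6 libraries over 14 genes, and 10 stood apart, where chance gives about 1 in 20. Control library 6 was the distant library of batch 2 for Sox1 at 148 CPM (others 81.1 to 87.8), Sox2 at 191 CPM (126 to 150), Sox3 at 134 CPM (84 to 100) and Sox21 at 157 CPM (78.4 to 89.4). The same library was distant for Sox4 at 496 CPM (261 to 295), for Sox8 at 309 CPM (205 to 236) and for Sox1ot at 21.6 CPM (4.49 to 8.18). Sox6 at 509 CPM in control library 6 was distant from the rest of batch 2 (275 to 316) and from the other control libraries (220 to 296). Sox9 was distant in gRNA library 6, at 130 CPM against 172 to 189 in the rest of batch 2. The flags on different genes share libraries and are not independent.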

How the results depend on the processing

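Between the batches, 5 members passed with all 12 libraries; 3 did in the control libraries alone, 8 without libraries 6, and 5 to 8 with each library left out in turn (8 without control 6, 6 or fewer without any other). Of all genes, 10879 passed, 6730 in the control libraries alone, and 10528 to 12074 with each library left out. The fall of Sox11, Sox1, Sox3 and Sox9 and the rise of Sox6 kept their direction under every alternative run. In the control libraries alone the sign turned for Sox4 (0.12), Pou3f4 (0.055) and Sox1ot (0.056), and in the gRNA libraries alone for Pax6 (-0.034) and Chd7 (-0.05). Without libraries 6 it turned for Chd7 (-0.016). With total counts in place of TMM, the median of all genes moved from -0.03 to 0.05, and Sox2 (0.007) and Pou3f4 (0.001) turned. With each library left out in turn, Chd7 ran from -0.051 to 0.175 and Nes from -0.175 to 0.018. Besides the calls that control 6 changed, Sox5 passed without control 1 (-0.294) or gRNA 4 (-0.295), Bmi1 without control 2 (0.188), Mbp without gRNA 4 (1.355) or control 4 (1.372), and Col9a3 without gRNA 3 (-0.563) or gRNA 4 (-0.584). By limma-voom Sox5 (-0.276) and Gfap (-2.573) passed.

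For gRNA against control, without a filter on low counts 1 gene passed in all libraries, 1 in batch 1 and 42 for the difference between batches, none of them a member; otherwise 0 genes passed. Without libraries 6 Sox5 turned to 0.02, and to 0.071 in batch 2. In batch 1 Sox4 was 0 with DESeq2's size factors and Wald test. With each library left out, values in batch 1 ran from -0.101 to 0.017 for Sox1, -0.242 to 0.031 for Sox2, -0.221 to 0.03 for Sox21, -0.096 to 0.091 for Sox4, -0.06 to 0.051 for Sox5 and -0.066 to 0.062 for Sox9. In batch 2 they ran from -0.132 to 0.025 for Sox11 and -0.423 to 0.045 for Sox6. The difference between batches ran from -0.44 to 0.014 for Sox1, -0.206 to 0.074 for Sox2, -0.142 to 0.114 for Sox3, -0.437 to 0.101 for Sox21, -0.01 to 0.173 for Sox11 and -0.356 to 0.139 for Sox6, and without libraries 6 it was 0.057 for Sox3, 0.038 for Sox21, 0.097 for Sox5 and 0.089 for Sox6. The cause of these changes was not tested.

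No paired analysis was possible because the RNA libraries carry no replicate number in the labels and the footprint libraries, which do, could not be tied to their labels. The alternatives planned for levels per length and for footprints were not run. With 3 libraries per batch and treatment, within-batch intervals span up to about 1 on the log2 scale.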
